A study of Mus musculus with 9 samples.

Results

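The comparison set 6 small RNA libraries from embryonic mouse kidneys with altered DROSHA, taken as 1 group, against 3 wild-type controls, out of 9 libraries in all. All were whole kidneys at embryonic day 16.5. The pooled group held 3 libraries with a DROSHA-E1147K transgene and another 3 in which DROSHA was knocked out, and membership followed the genotype given for each library. The labels used here name neither the mouse lines, the promoter or Cre driver, nor the cells that carry the change, and they leave unsaid whether each library was a different animal. The p-values therefore measure only library-to-library spread, which may be technical. Of 1607 mouse miRNA names with a read in some library, 955 had enough reads to be tested. The purpose of pooling was to find miRNAs that differed from controls in both genotypes, so a miRNA is called shared below only where all 6 altered libraries lay on 1 side of all 3 controls. Levels are read counts scaled to a common total of known miRNA reads (counts per 1e6, CPM) with TMM factors, TMM being a scaling that holds most miRNAs at equal level across libraries.

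In the nucleus, the RNase III enzyme DROSHA and its partner DGCR8 cut primary transcripts into the hairpins from which Dicer makes mature miRNAs. E1147K changes a metal-binding residue in an RNase III domain and is the recurrent DROSHA mutation of Wilms tumor, a childhood kidney cancer. A mature miRNA pairs with its targets mainly through its seed, bases 2 to 8 from its 5′ end, so miRNAs with 1 seed form a family. A few precursors reach Dicer without DROSHA, among them mirtrons and capped hairpins. Because values are shares of sequenced miRNA, a fall of all miRNAs by the same factor would leave them unchanged. In whole kidneys, fewer cells of a type and less RNA per cell cannot be told apart. Drosha mRNA was not measured, so the genotypes were not checked by it.

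Mature sequences of miRNAs on which the lower side of the comparison turned are given first (RefSeq, GRCm38.p6), 5′ to 3′, with the seed in capitals. miR-27a-3p is shown as the near-identical product of the paralogous cluster. miR-10a and miR-10b, miR-93 and miR-20a, miR-25 and miR-92a, and the miR-30c 3′ arms are pairs that share a seed, and the rest are single members on which a result turns.
miR-27b-3p: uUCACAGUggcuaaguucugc
miR-27a-3p: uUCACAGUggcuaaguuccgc
miR-322-5p: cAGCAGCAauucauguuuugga
miR-378b: cUGGACUUggagucagaaga
miR-10a-5p: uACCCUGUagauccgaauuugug
miR-10b-5p: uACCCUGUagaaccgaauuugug
miR-93-5p: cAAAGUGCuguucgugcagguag
miR-20a-5p: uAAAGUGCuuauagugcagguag
miR-25-3p: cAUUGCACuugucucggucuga
miR-92a-3p: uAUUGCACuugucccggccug
miR-30c-1-3p: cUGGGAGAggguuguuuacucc
miR-30c-2-3p: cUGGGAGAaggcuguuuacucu
miR-204-5p: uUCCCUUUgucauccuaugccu
miR-194-5p: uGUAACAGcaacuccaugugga
The higher side was led by miRNAs of 1 imprinted region of chromosome 12, whose seeds mostly differ from each other. miR-379-3p and miR-411-3p are shown because they share one. The last sequence, miR-142a-5p, is from chromosome 11, outside that region.
miR-127-3p: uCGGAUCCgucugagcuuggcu
miR-431-5p: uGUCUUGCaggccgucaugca
miR-341-3p: uCGGUCGAucggucggucggu
miR-369-3p: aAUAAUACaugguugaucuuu
miR-379-3p: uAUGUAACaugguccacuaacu
miR-411-3p: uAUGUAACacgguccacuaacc
miR-142a-5p: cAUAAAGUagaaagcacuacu

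In the pooled comparison, 0 of 955 miRNAs passed an adjusted p of 0.05 by edgeR's quasi-likelihood test (0% called). At an unadjusted p under 0.05 there were 180 (18.8%), of which 110 were higher (11.5%) and 70 lower (7.33%). DESeq2, run as an alternative, called 46 of the 896 to which it gave an adjusted p (5.13%), 34 higher (3.79%) and 12 lower (1.34%). The common biological coefficient of variation estimated for the pooled comparison was 0.51. In 130 miRNAs (13.6%) the 6 altered libraries did not overlap with the 3 controls, 67 above them (7.02%) and 63 below (6.6%). Of the 67 above, DESeq2 called 27, and of the 63 below it called 12. Of the higher set, 64 (6.7% of those tested) were apart from the controls under each of 4 scalings, namely TMM, total miRNA counts, all counted reads and DESeq2's size factors. Of the lower set, 24 did so (2.51%). Scaling to total counts moved the median of all fold changes from -0.01 to 0.21 on the log2 scale, and with it 161 of 185 miRNAs at an unadjusted p under 0.05 were higher, against 110 of 180 with TMM.

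The 67 higher miRNAs together took 1.91% to 2.27% of known miRNA reads in the controls and 3.33% to 8.13% (median 4.52%) in the altered libraries. The 63 lower ones took 28.5% to 30.4% in controls and 14.6% to 24.2% (median 22.1%) in the altered libraries. These shares describe miRNAs chosen by the same values and carry no test. The lower set was the more abundant, with 19 miRNAs averaging at least 1000 CPM against 9 in the higher set, where 96 of all 955 did. Median log2 fold changes were 1.09 and -0.66. Of 306 hairpins with both arms tested, both arms lay above the controls in 11, both below in 5 and the arms on opposite sides in 0. In 69 only 1 arm was apart from the controls, and in 59 of these the other arm had the same sign. The 11 hairpins with both arms higher, such as those of miR-341, miR-431, miR-668 and miR-758, were all from the chromosome 12 region, and the 5 with both arms lower were miR-23b, miR-27b, miR-181d, miR-200a and miR-701.

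**Figure D1:**
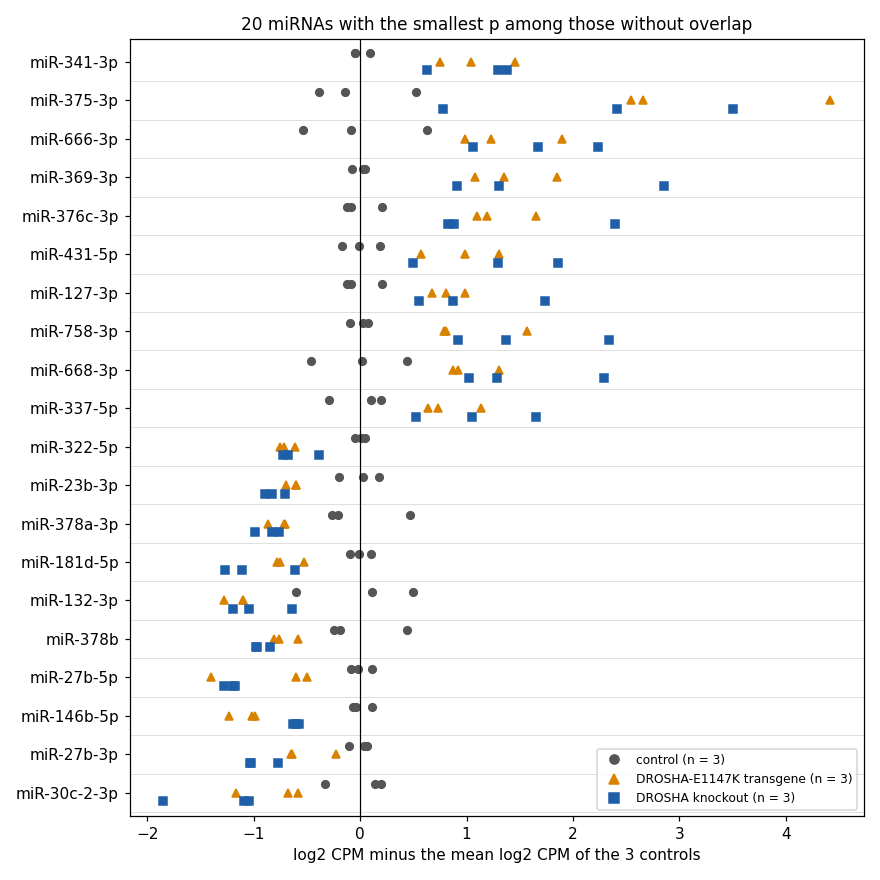
Log2 CPM of each library minus the mean log2 CPM of the 3 controls (x axis) for the 10 higher and 10 lower miRNAs with the smallest p-values among those averaging at least 10 CPM with no overlap (y axis), with groups by colour and symbol. All 6 altered libraries lie on 1 side of all 3 controls in each row, by the choice of rows, and miR-375-3p has the widest spread.

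The higher side was mostly 1 genomic cluster. The Dlk1-Dio3 region of chromosome 12 is an imprinted domain that expresses a large group of miRNAs from the maternal chromosome. Some of these miRNAs lie within the noncoding transcripts Meg3, Rian and Mirg. The miRNAs of the region are abundant in embryonic and placental tissue. All 99 tested members had positive log2 fold changes under each of the 4 scalings, where 475 of all 955 miRNAs were positive with TMM. Their median was 1.07, or 0.80 for the transgene and 1.25 for the knockout, beside -0.01 for all tested miRNAs. In 48 of the 99 the altered libraries lay above every control (background 7.02%), which makes them 48 of the 67 higher miRNAs in all. Of these, 47 held under each scaling (background 6.7%). By edgeR 0 members passed the adjusted threshold and 71 had an unadjusted p under 0.05 (background 11.5% higher). DESeq2 called 22 members (background 3.79% higher). Of the 63 lower miRNAs, 0 were from the region.

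The most abundant member, miR-127-3p, is encoded at chr12:109592888-109592909 (GRCm38) with no other annotated gene on its strand. It stood at 5778, 5646 and 7085 CPM in the controls, 9780.1, 12143 and 10706 CPM in the transgene libraries and 8993, 11248 and 20394 CPM in the knockout libraries. Every altered library lay above every control, by the choice of named miRNAs, and the highest was knockout 3. The log2 fold change was 0.98 (SE 0.27). The edgeR adjusted p of 0.163 did not pass, and the DESeq2 adjusted p was 0.0381. miR-431-5p, from the same stretch, was at 1667, 1852 and 2124 CPM in the controls, 3705, 4613 and 2777 CPM in the transgene libraries and 2647, 4594 and 6801 CPM in the knockout libraries, with a log2 fold change of 1.16 (SE 0.31). miR-341-3p, within an intron of Rian at chr12:109611556-109611576, was at 549.6, 549.8 and 606 CPM in the controls, 1170.5, 1557 and 954 CPM in the transgene libraries and 878, 1397 and 1482 CPM in the knockout libraries. Its log2 fold change was 1.13 (SE 0.23), with an adjusted p of 0.138 by edgeR and 0.00443 by DESeq2.

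Elsewhere in the region, miR-369-3p, in an intron of Mirg at chr12:109743466-109743486, was at 238, 242 and 222.99 CPM in the controls and from 439.9 to 1699.8 CPM (median 589) in the altered libraries, with a log2 fold change of 1.73 (SE 0.45). miR-376c-3p had a log2 fold change of 1.45 (SE 0.38), miR-666-3p of 1.5 (SE 0.38), miR-758-3p of 1.41 (SE 0.38), miR-668-3p of 1.33 (SE 0.38) and miR-337-5p of 0.99 (SE 0.28). Each of these 5 lay above the controls in 6 of 6 altered libraries with TMM, by the choice of named miRNAs. Each also did so with total miRNA counts, all counted reads and DESeq2's size factors. Each missed the edgeR threshold and passed that of DESeq2. The abundant miR-379-5p, the first miRNA of the distal group, was at 4646 ± 1408 CPM in controls (SD, n = 3) and 6337 ± 2289.7 CPM in the altered libraries (SD, n = 6) and overlapped, with the smallest fold change of the region, 0.45 (SE 0.32). miR-411-5p was at 5862 ± 280.3 CPM in controls (SD, n = 3) and 9406 ± 3494 CPM in the altered libraries (SD, n = 6), with a log2 fold change of 0.68 (SE 0.28). The 3′ arms of the last pair, which share the seed AUGUAAC, both lay above the controls.

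The miRNAs of the region fall in 2 groups along the chromosome, separated by the widest gap between neighbours, 90.8 kb. Of the 95 members with a RefSeq position, 29 lie in the proximal group (chr12:109563710-109618326, miR-770-5p to miR-370-3p) and 66 in the distal group (chr12:109709065-109747949, miR-379-5p to miR-3072-3p). The proximal median log2 fold change was 1.02, with a range of 0.51 to 1.61 and 13 of 29 above every control. The distal median was 1.07, with a range of 0.45 to 1.85 and 32 of 66 above every control. The groups therefore covered nearly the same range, and no member of either was negative.

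**Figure D2:**
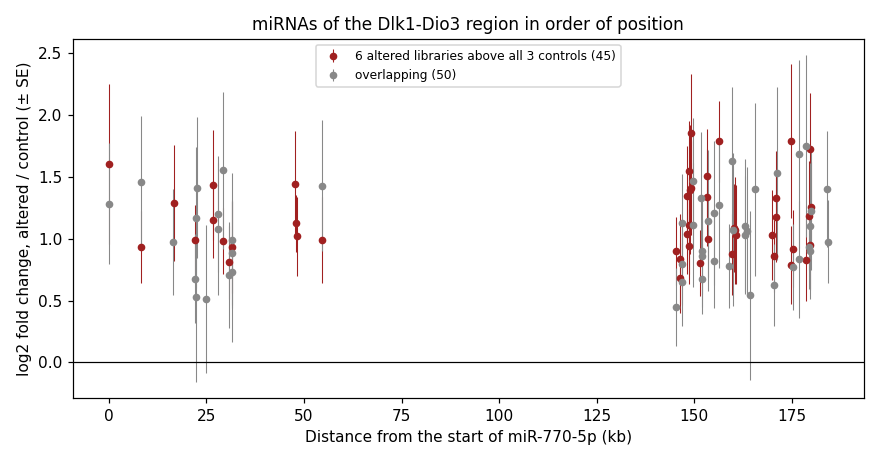
Log2 fold change of pooled altered against control libraries (y axis, bars are 1 SE from edgeR) for 95 miRNAs of the Dlk1-Dio3 region by distance from miR-770-5p (x axis, kb). Red points are the 45 whose 6 altered libraries lay above all controls and grey points the 50 that overlapped. All points lie above 0 in both the proximal and the distal group.

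Libraries differed in how far they stood from the controls. The summed level of the region was from 30681 to 35183 CPM in controls and from 41172 to 110147 CPM (median 54595) in the altered libraries, and the highest sum was knockout 3. Without knockout 3 the median fold change of the region was 0.85, and without both transgene 2 and knockout 3 it was 0.72. In the latter fit 97 of 99 members were positive, the others being negative or untested. There 53 members lay above every control, as did 87 of all 912 miRNAs tested in that fit. The sums of 5 of the 8 lists of cell type markers (striated muscle, neural, erythroid, leukocyte, and stroma and smooth muscle) were also highest in knockout 3. The sum over 10 striated muscle miRNAs was from 224 to 1266 CPM in controls and from 464 to 10599 CPM (median 1248) in the altered libraries. Their median was 2.08, with all 10 positive and 0 apart from the controls, and it was 0.91 without knockout 3. miR-206-3p, the most abundant and specific to skeletal muscle, was at 350.2 ± 434.2 CPM in controls (SD, n = 3) and 1659.8 ± 2599.7 CPM in the altered libraries (SD, n = 6). Summed neural markers were from 3343 to 5752 CPM in controls and from 3194 to 18386 CPM (median 7459) in the altered libraries, with a median fold change of 0.81 (13 of 18 positive, 0 apart), which was 0.15 without knockout 3. None of the 3 defining markers of either list was under 1 CPM in any library. Knockout 3 stood at 113788 CPM for the erythroid list, 1445 CPM for the leukocyte list and 76618 CPM for the stromal list. The part of these tissues in the level of the Dlk1-Dio3 miRNAs was not tested.

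**Figure D3:**
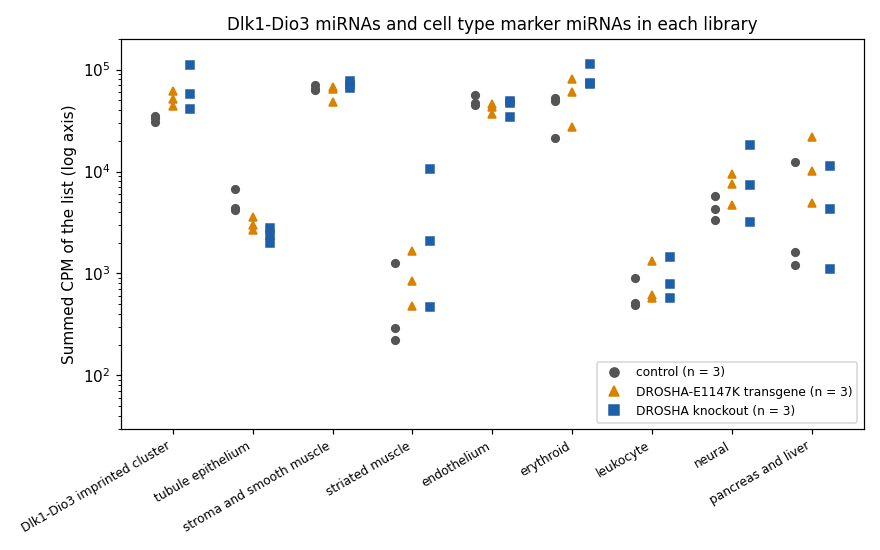
Summed CPM of the Dlk1-Dio3 list and of each list of cell type markers (y axis, log scale) in each library, by group. The Dlk1-Dio3 sums of the 6 altered libraries lie above those of the 3 controls, the tubule sums lie below, and the striated muscle sums overlap, with knockout 3 the highest.

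Outside the chromosome 12 region, 19 miRNAs lay above every control, 4 of them at a mean of at least 10 CPM. Among these 4 the largest difference was that of miR-375-3p, known for its role in pancreatic islet cells. It was at 388, 616 and 328.7 CPM in the controls, 2697, 2502 and 9143 CPM in the transgene libraries and 737, 2279 and 4856 CPM in the knockout libraries. The 6 altered libraries ranged widely but all exceeded the controls, with a log2 fold change of 3.06 (SE 0.73), an adjusted p of 0.163 by edgeR and 0.000362 by DESeq2. Of the other pancreas and liver markers, liver-specific miR-122-5p overlapped at 4543 ± 6333 CPM in controls (SD, n = 3) and 5112 ± 7168 CPM in the altered libraries (SD, n = 6), and the list's sum was from 1197.3 to 12381 CPM in controls and from 1115 to 21767 CPM (median 7596) in the altered libraries. None of that list's defining markers was under 1 CPM, and the part of adjoining tissue in the level of miR-375-3p was not tested.

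miR-142a-5p, a marker of blood cells, was at 33.1, 33.7 and 28.7 CPM in the controls, 75.7, 166 and 72.3 CPM in the transgene libraries and 108, 46.1 and 293.9 CPM in the knockout libraries, a log2 fold change of 2.0 (SE 0.58) with a DESeq2 adjusted p of 0.0149. Its other arm, miR-142a-3p, was more abundant and overlapped, with 170.2 ± 37.1 CPM in controls (SD, n = 3) and 391 ± 255 CPM in the altered libraries (SD, n = 6) and a log2 fold change of 1.20 (SE 0.55). The leukocyte list as a whole had a median of 0.17, 5 of 9 positive, and sums from 492.9 to 902 CPM in controls and from 571 to 1445 CPM (median 706) in the altered libraries. Red-cell miR-451a, whose hairpin needs DROSHA but not Dicer and which was among the 5 most abundant control miRNAs, was at 39999 ± 16632 CPM in controls (SD, n = 3) and 69058 ± 27208 CPM in the altered libraries (SD, n = 6) and overlapped (log2 0.79, SE 0.42). All 7 erythroid miRNAs were positive, with a median of 0.94 that was 0.47 without control 3, and 0 were apart from the controls.

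The lower side held abundant kidney miRNAs, among them all tested arms of miR-23b and miR-27b but none of their paralogues miR-23a and miR-27a. The miR-23b, miR-27b and miR-24-1 hairpins lie on chromosome 13 within 2010111I01Rik, and the miR-23a, miR-27a and miR-24-2 hairpins form the paralogous cluster on another chromosome. All 4 tested arms of miR-23b and miR-27b lay below every control under each of the 4 scalings. With TMM this was a condition of naming miR-23b-3p and both arms of miR-27b. miR-23b-3p was at 5916, 5074 and 6579 CPM in the controls, 3843, 3595 and 3846 CPM in the transgene libraries and 3143, 3279 and 3564 CPM in the knockout libraries. Its log2 fold change was -0.72 (SE 0.14), with an adjusted p of 0.138 by edgeR and 0.0123 by DESeq2. miR-27b-3p was at 10971, 9950.5 and 11226 CPM in the controls, 9122, 6831 and 6869 CPM in the transgene libraries and 5270.1, 6265 and 5228 CPM in the knockout libraries, a log2 fold change of -0.70 (SE 0.19) that passed neither tool (0.163 and 0.0896). Its 5′ arm, miR-27b-5p, had a log2 fold change of -0.98 (SE 0.25).

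None of the 4 tested arms of miR-23a and miR-27a was apart from the controls. miR-27a-3p, which differs from miR-27b-3p only by U19C (positions from 1 at the 5′ end) and has the same seed, was at 7211, 7858 and 9211 CPM in the controls, 7073, 5705 and 6661 CPM in the transgene libraries and 8524, 8500.2 and 6839 CPM in the knockout libraries. Its log2 fold change was -0.17 (SE 0.17), and that of miR-23a-3p was -0.07 (SE 0.20). The difference between the paralogues was not tested, and the assignment of reads that match both is not stated in the sources used. miR-24-3p is encoded in both clusters and had log2 fold changes of opposite sign in the genotypes, 0.86 for the transgene and -0.64 for the knockout. Its pooled value, 0.30, turned negative when transgene 2 was left out.

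miR-322-5p, a member of the miR-15 and miR-16 seed family encoded on the X chromosome at chrX:53054306-53054327, had the smallest p-value of the lower side. It was at 28647, 29814 and 30508 CPM in the controls, 18078, 17639 and 19379 CPM in the transgene libraries and 17939, 22622 and 18494 CPM in the knockout libraries. The highest altered library, knockout 2, was under the lowest control, which the choice of named miRNAs required. miR-322-5p had a log2 fold change of -0.64 (SE 0.12) and an adjusted p of 0.138 by edgeR and 0.0283 by DESeq2. No other member of its cluster lay below every control. The other arm of the same hairpin, miR-322-3p, was at 876 ± 206.1 CPM in controls (SD, n = 3) and 982 ± 351.1 CPM in the altered libraries (SD, n = 6), with a log2 fold change of 0.16 (SE 0.31). miR-351-5p had a log2 fold change of 0.23 (SE 0.30) and miR-542-5p of 0.16 (SE 0.19), and 9 of 13 tested members were positive. In the list of the miR-15 and miR-16 family, 0 of 11 were apart from the controls.

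Of 5 tested miR-378 names, a group known for its link to energy metabolism, all had negative fold changes and 3 lay below every control (background 6.6%). They form no list set up for the comparison and were put together after their values were seen. The lists themselves were chosen with earlier results of these data known. miR-378a-3p was at 14000.2, 23248 and 14508 CPM in the controls, 10243, 10269 and 9218 CPM in the transgene libraries and 9448, 9919 and 8469.7 CPM in the knockout libraries, with a log2 fold change of -0.85 (SE 0.17) and a DESeq2 adjusted p of 0.0283. miR-378b was at 142.03, 228 and 148 CPM in the controls, 112, 99.2 and 96.5 CPM in the transgene libraries and 85.8, 85.9 and 93.6 CPM in the knockout libraries, a log2 fold change of -0.85 (SE 0.21). miR-378d was at 204.01, 316 and 207 CPM in the controls, 136.1, 1.63 and 121 CPM in the transgene libraries and 105, 118 and 126.7 CPM in the knockout libraries, with transgene 2 far under the rest. These miRNAs are near-identical in sequence, so reads could be split between them.

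Another 5 named miRNAs were lower in all 6 altered libraries, which was a condition of the choice except for miR-342-5p. miR-181d-5p, from an intron of Nanos3, was at 2788, 2959 and 3202 CPM in the controls and from 1238 to 2066 CPM (median 1752) in the altered libraries, a log2 fold change of -0.82 (SE 0.19). The more abundant miR-181a-5p overlapped at -0.26 (SE 0.16). miR-146b-5p, from an intron of Mfsd13a at chr19:46342790-46342811 and known for damping NF-κB signalling, was at 93.5, 95.2 and 105.9 CPM in the controls and from 41.9 to 66.0 CPM (median 56.4) in the altered libraries, while its paralogue miR-146a-5p had a log2 fold change of -0.22 (SE 0.16) and overlapped. miR-132-3p was at 47.6, 29.01 and 62.0 CPM in the controls and from 18.1 to 28.3 CPM (median 20.6) in the altered libraries. miR-30c-2-3p and miR-342-5p differed by -1.03 (SE 0.28) and -0.74 (SE 0.20) on the log2 scale, where miR-342-3p, the main arm of the latter hairpin, was at 0.13 (SE 0.19). DESeq2 called all 5, and miR-132-3p and miR-30c-2-3p overlapped with the controls when scaled to total counts. miR-342-5p was named after its values were seen.

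Among the 5 most abundant miRNAs of control kidneys, 2 were lower in every altered library (background 6.6%). Of the 96 miRNAs averaging at least 1000 CPM, 19 lay below every control. let-7i-5p was at 41171, 38657 and 39234 CPM in the controls, 31122, 26297 and 29703 CPM in the transgene libraries and 26908, 30236 and 20763 CPM in the knockout libraries, under each of the 4 scalings, with a log2 fold change of -0.53 (SE 0.14). miR-10a-5p, encoded between the Hoxb genes, was at 108043, 85945 and 99599 CPM in the controls, 83589.9, 46858 and 56818 CPM in the transgene libraries and 49969, 57712 and 25505 CPM in the knockout libraries, a log2 fold change of -0.87 (SE 0.28). It overlapped with the controls when scaled to total counts, as did miR-10b-5p of the Hoxd cluster (log2 -0.56, SE 0.21), which shares its seed ACCCUGU. miR-26a-5p and endothelial miR-126a-3p differed by -0.32 (SE 0.14) and -0.23 (SE 0.15) on the log2 scale and overlapped. In the let-7 family 17 of 23 tested members were negative, with a median of -0.30 and 3 below every control (background 6.6%). Under all 4 scalings 1 was below (background 2.51%). The median was -0.09 with total counts and -0.12 without both transgene 2 and knockout 3.

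The miR-17~92 cluster and its paralogues, known for promoting proliferation of progenitor cells, were lower as a group with TMM. All 25 tested members were negative, with a median of -0.43 (-0.22 for the transgene and -0.64 for the knockout), and 9 lay below every control (background 6.6%). Only miR-93-5p and miR-25-3p, both from the Mcm7 intron cluster, did so under each of the 4 scalings (background 2.51%). With total counts 20 of 25 were negative, beside 333 of all 955. miR-92a-3p was at 25383, 33410.3 and 22331 CPM in the controls, 19418, 19357 and 20449 CPM in the transgene libraries and 15907, 14669 and 10652 CPM in the knockout libraries (log2 -0.69, SE 0.22). miR-93-5p was at 9182, 12951 and 9408 CPM in the controls, 7337, 7218 and 7198 CPM in the transgene libraries and 6287, 7087 and 4419 CPM in the knockout libraries (log2 -0.67, SE 0.19). Neither was called by either tool. The seed AAAGUGC was shared by 3 miRNAs below every control (miR-20a-5p, miR-20b-5p and miR-93-5p), and all 6 tested miRNAs with it were negative. The seed AUUGCAC was shared by miR-25-3p and miR-92a-3p. The median of the list was -0.28 without knockout 3 and -0.26 without both transgene 2 and knockout 3.

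For miRNAs of the tubule epithelium, all 8 tested members were negative under each of the 4 scalings, with a median of -0.86 (-0.60 for the transgene and -1.23 for the knockout), and summed levels were from 4239.6 to 6694 CPM in controls and from 1986 to 3544 CPM (median 2760.0) in the altered libraries. miR-204-5p, hosted by Trpm3 and a regulator of epithelial identity, was at 2142, 2005 and 2303 CPM in the controls, 1807, 939 and 1240.1 CPM in the transgene libraries and 1349, 1648 and 828 CPM in the knockout libraries, a log2 fold change of -0.72 (SE 0.25). miR-194-5p was at 639, 754 and 1106 CPM in the controls, 40.6, 374.5 and 350.5 CPM in the transgene libraries and 280.1, 373 and 391 CPM in the knockout libraries, a log2 fold change of -1.47 (SE 0.53). These were the 2 of 8 below every control (background 6.6%), and both held under all 4 scalings (background 2.51%). miR-192-5p, its partner in the miR-192 and miR-194 clusters, was at 2079 ± 1009 CPM in controls (SD, n = 3) and 1116 ± 559.7 CPM in the altered libraries (SD, n = 6) and overlapped (log2 -0.90, SE 0.40). By edgeR 0 of the 8 passed and 5 had an unadjusted p under 0.05 (background 7.33% lower), and DESeq2 called 0. None of the 3 defining tubule markers was under 1 CPM in any library. The same held for the defining markers of every other cell type list, so it does not tell tissues apart.

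The miR-30 family, abundant in nephron epithelium and podocytes, was negative in 11 of 11 tested members with a median of -0.44 (-0.32 for the transgene and -0.66 for the knockout), and 4 lay below every control (background 6.6%). Under all 4 scalings 2 did (background 2.51%), and with total counts the median was -0.24. The 4 included the 3′ arms miR-30c-1-3p and miR-30c-2-3p, which share the seed UGGGAGA, whereas the abundant miR-30d-5p (log2 -0.29, SE 0.26) and miR-30c-5p (log2 -0.38, SE 0.36) overlapped with the controls. In the epithelial miR-200 family, miR-200a-3p (log2 -0.73, SE 0.32) and miR-200b-3p (log2 -0.58, SE 0.26) lay below every control with TMM and overlapped with total counts. Of 9 tested members 6 were negative and 3 lay below every control (background 6.6%), 0 of them under all 4 scalings. The family's median was -0.32, or -0.08 with total counts and -0.09 without knockout 3. miR-200c-3p, from the family's other cluster, had a log2 fold change of 0.14 (SE 0.20). The family's sum was from 35972 to 40673 CPM in controls and from 13037 to 34425 CPM (median 29112) in the altered libraries.

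**Figure D4:**
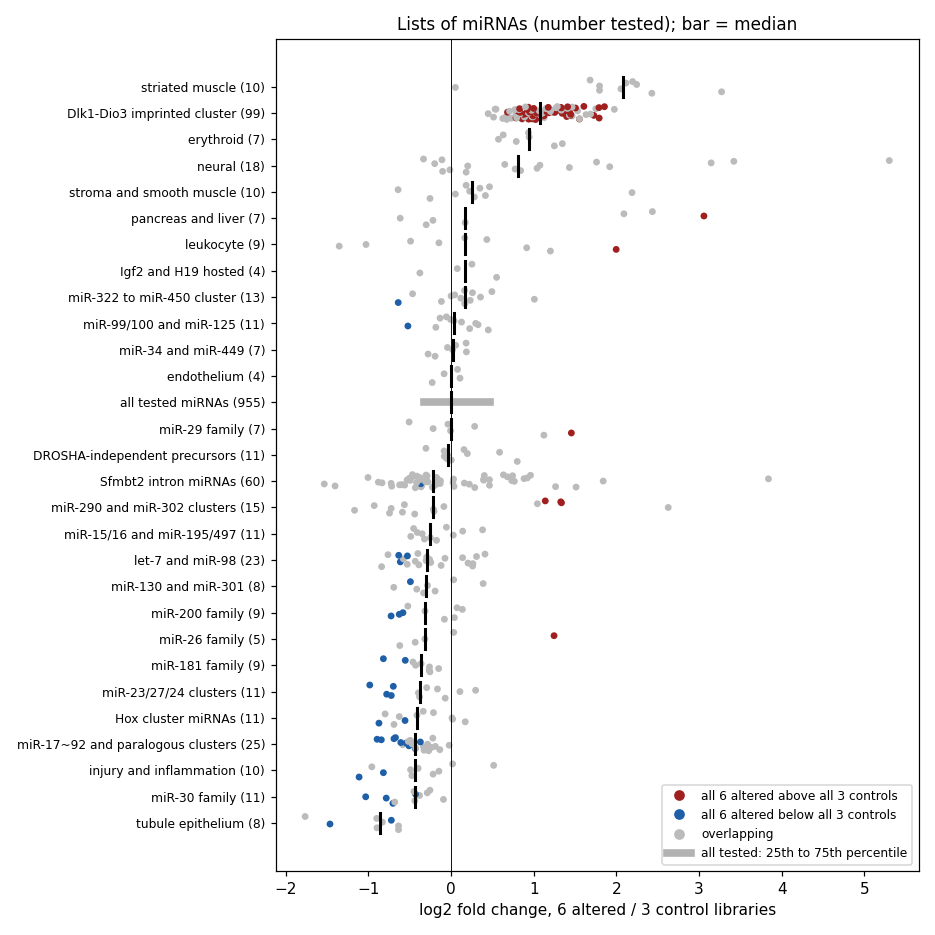
Log2 fold changes of pooled altered against control libraries (x axis, edgeR with TMM) for the members of each list (y axis). Each point is 1 miRNA, red or blue where all 6 altered libraries lay above or below all 3 controls and grey where they overlapped, and bars are list medians. The Dlk1-Dio3 list has all members above 0, and the miR-17~92, miR-30 and tubule lists all below 0.

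Among the other lists, for 11 miRNAs whose precursors are made without DROSHA the median with TMM was -0.04, with 5 positive, 6 negative and 0 apart from the controls. With total counts the median was 0.19, and 10 of the 11 were positive, as also with all counted reads. Over all 955 miRNAs the median with total counts was 0.21, and 622 were positive. With all counted reads 555 of the 955 were positive. miR-484, from a capped transcript, was at 2307 ± 176 CPM in controls (SD, n = 3) and 2643 ± 921 CPM in the altered libraries (SD, n = 6), and miR-320-3p at 752 ± 126.2 CPM in controls (SD, n = 3) and 729.8 ± 220.4 CPM in the altered libraries (SD, n = 6). The endothelial list had a median of 0.00, and 10 stromal and smooth muscle miRNAs a median of 0.25 with 0 apart from the controls. miR-21a-5p, the main injury miRNA of the kidney, was at 18393 ± 649.6 CPM in controls (SD, n = 3) and 18615 ± 3475 CPM in the altered libraries (SD, n = 6), a log2 fold change of 0.02 (SE 0.17). In the injury and inflammation list, 2 of 10 were below every control (background 6.6%), miR-132-3p and miR-146b-5p, of which only the latter under all 4 scalings. That list's median was -0.44, or -0.22 with total counts and -0.26 without knockout 3.

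Whether the shared differences were of unlike size in the genotypes was tested directly. Over all 955, knockout minus transgene gave 1 call by edgeR (0.105%) and 67 at an unadjusted p under 0.05 (7.02%). Among the 67 higher miRNAs 2 had such a p, and among the 63 lower ones 6 did. The knockout was the farther from the controls in 58 of the 67 and in 46 of the 63, beside 646 of all 955. Among the higher miRNAs named, knockout 3 was the far library for miR-127-3p, miR-369-3p, miR-668-3p and miR-758-3p. For miR-27b-3p the fold changes were -0.49 for the transgene and -0.94 for the knockout (unadjusted p of the difference 0.032, adjusted p 0.652 by edgeR). For miR-146b-5p they were -1.08 for the transgene and -0.60 for the knockout (unadjusted p 0.0447, adjusted p 0.652 by edgeR). For miR-127-3p they were 0.82 for the transgene and 1.13 for the knockout, and for miR-322-5p -0.69 for the transgene and -0.59 for the knockout. Both comparisons share the 3 controls.

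The pooled libraries also differed from controls in their overall make-up. Known miRNAs took 81.9%, 80.9% and 81.8% of counted reads in the controls, 78.4%, 76.9% and 79.1% in the transgene libraries and 74.7%, 76.7% and 77.0% in the knockout libraries. All 6 altered libraries lay below all 3 controls, by 4.42 percentage points on average (81.5% ± 0.527, SD, n = 3, against 77.1% ± 1.53, SD, n = 6). The exact two-sided permutation p was 0.0238, the smallest that 6 against 3 allow, and 0.0714 after Benjamini-Hochberg adjustment over 3 library measures. Leaving out exon, intron, repeat and intergenic reads made the difference -2.31 points, still without overlap (exact permutation p 0.0238). Hairpin-annotated reads were 0.00121% ± 0.000243 (SD, n = 3) of miRNA reads in controls and 0.00128% ± 0.0003 (SD, n = 6) in altered libraries (exact permutation p 0.714). A separate class labelled precursor, outside the known miRNA names, took 6.26%, 6.07% and 5.67% of counted reads in the controls. It took 6.22%, 7.72% and 5.74% in the transgene libraries and 7.26%, 7.14% and 10.2% in the knockout libraries, and was not tested. The median log2 ratio of 5′ to 3′ arms over 306 hairpins was 0.65 in controls and 0.56 in altered libraries (difference -0.09, exact permutation p 0.286, adjusted 0.429).

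**Figure D5:**
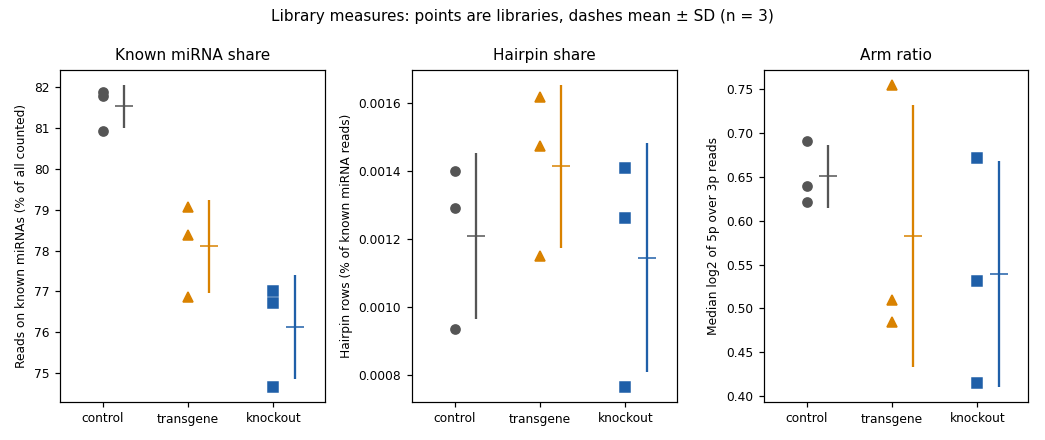
The share of counted reads on known miRNAs (percent), the share of miRNA reads on hairpin entries (percent) and the median log2 ratio of 5′ to 3′ arms in each of the 9 libraries, by group, with group means ± SD (n = 3). The miRNA share is lower in all 6 altered libraries than in any control, and the other measures overlap.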

How the data were processed

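Small RNA was sequenced from 9 libraries of flash-frozen whole kidneys, 3 per group, with RNA extracted by Trizol and libraries made by the BGI protocol, per the labels' protocols. CASAVA 1.8, Bowtie2 and mm10 are named in the submitters' processing notes, without their roles. The deposited values are whole read counts per small RNA name, and the deposited TPM column is that count per 1e6 of the file's total, per the file headers and values. TPM was not used in tests. Totals were 31743004 to 42609889 reads per library, of which 24350500 to 34896599 fell on known miRNA names (starting with mmu-). Mature and hairpin counts of a name were summed, and the latter were 205 to 490 reads per library. The reads carry no molecular identifiers.

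Counts were filtered with filterByExpr, scaled by TMM and tested with edgeR 4.0.16 (R 4.3.3) with 1 factor of 2 levels (6 against 3), Benjamini-Hochberg adjustment and a threshold of 0.05. A fit with 3 levels gave the values per genotype and knockout minus transgene. edgeR was first tested on simulated data. Library measures were compared by exact two-sided permutation (SciPy 1.17.1), the arm ratio with a pseudocount of 1. Alternatives included DESeq2 1.42.0, limma voom (limma 3.58.1), other scalings, filters and left-out libraries. Members and lists were chosen with earlier results of these data known. Named were, among miRNAs without overlap that averaged 10 CPM or more, calls with adjusted p under 0.05 or, as there were fewer than 10, the 10 higher and 10 lower with the smallest p-values, the 5 most abundant control miRNAs, up to 4 most abundant members of each list described, and the other arms and seed relatives of these. Any other miRNA was named after its values were seen. Positions and sequences are from RefSeq (GRCm38.p6; a position for 798 of 955 tested) and host genes from GENCODE.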

Additional observations from a re-analysis of the deposited data

Results flagged for a closer look

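Of 28 groups of 6 altered libraries checked, 6 had a library far from the other 5 by Dixon's test at 95%, and chance flags about 1 in 20. In 5 the library was knockout 3. It was the highest at 1699.8 CPM for miR-369-3p, 20394 CPM for miR-127-3p, 73.9 CPM for miR-758-3p and 457 CPM for miR-668-3p, all of the Dlk1-Dio3 region, and also for miR-132-3p, at 28.3 CPM, where it was the altered library nearest to the controls. These 5 miRNAs were apart from the controls in the other 5 altered libraries too, by the choice of miRNAs. For miR-322-5p knockout 2 was the highest at 22622 CPM, the other altered libraries lying between 17639 and 19379 CPM.

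miR-3067-5p was the only miRNA to differ between the genotypes by edgeR (knockout minus transgene log2 -6.39, adjusted p 0.0285). It lies in an intron of Smoc1 and was scarce, at 0.534, 0.542 and 0.883 CPM in the controls, 3.59, 2.83 and 0.86 CPM in the transgene libraries and 0, 0.0407 and 0.0362 CPM in the knockout libraries. The transgene libraries were partly above the controls and the knockout libraries below all of them.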

How the results depend on the processing

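The count of 0 calls by edgeR held in 21 further edgeR fits (scaling, filter, design, counted names, left-out libraries) and with limma voom, and became 46 with DESeq2, which passed 19 of 25 miRNAs (the 10 higher, the 10 lower and the 5 most abundant in controls). At an unadjusted p under 0.05 the higher count (110) was 72 with a mean of at least 10 CPM, 50 for the transgene only, and 57 to 138 with 1 library left out (57 without control 1, 60 without control 2). The lower count (70) was 24 with total counts, 33 with all counted reads, 34 for the transgene only, 44 without both transgene 2 and knockout 3 (chosen after seeing the data), and 37 to 91 with 1 library left out, namely 45 without control 2, 39 without transgene 2, 44 without transgene 3 and 37 without knockout 1. The count of miRNAs above every control (67) was 107 with total counts, 43 above the 10 CPM filter and 78 to 108 with 1 library left out. The count below (63) was 24 with total counts, 35 when scaled to all counted reads, and 51 to 115 with 1 library left out. Leaving out a library also loosens the demand of no overlap. The other causes were not tested. None of those 25 changed the sign of its log2 fold change. Of 51 other miRNAs named, 42 kept their sign and 9 changed it in some setting. With total counts miR-23a-3p, miR-27a-3p and miR-320-3p turned positive, and with 1 or 2 libraries left out or another model miR-21a-5p, miR-24-3p, miR-26b-5p, miR-122-5p, miR-292a-3p and miR-3067-5p changed sign.

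The miRNA share differed by -3.93 to -4.81 points with 1 library left out. Without a control it was -4.24, -4.72 and -4.3 points, with exact permutation p 0.0714, the smallest that 6 against 2 allow, so that test could not pass. The hairpin share reversed without control 2 (-6.56e-05 points, exact permutation p 0.929) and otherwise lay between 3.66e-06 and 0.000174 points. Same-numbered libraries showed no common deviation (correlations of same-numbered deviations -0.302 to 0.102), which does not settle whether they were paired. A replicate block gave 0 calls, with 88 higher and 58 lower at an unadjusted p under 0.05. Hairpin shares rest on 205 to 490 reads per library, and for scarce miRNAs depth limits the comparison.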

Other observations

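Several miRNAs outside the main groups were also apart from the controls, and were picked out after their values were seen. The embryonic stem cell miRNAs miR-302b-3p, miR-302c-3p and miR-302d-3p, products of 1 transcript, lay above every control under each of the 4 scalings. They were 3 of the 15 tested members of the miR-290 and miR-302 clusters (background 6.7% under all 4 scalings). Of the 15, 10 were negative, with a median of -0.21 that ranged from -1.30 to 2.56 with 1 library left out. miR-302d-3p was at 2.26, 1.63 and 1.99 CPM in the controls, 4.35, 2.77 and 3.20 CPM in the transgene libraries and 2.90, 4.31 and 8.40 CPM in the knockout libraries, and the log2 fold changes of the 3 were 1.33, 1.33 and 1.14. These levels are low, and none passed by edgeR or DESeq2. The other stem cell cluster, represented by miR-292a-3p at 29.7 ± 46.7 CPM in controls (SD, n = 3) and 25.6 ± 42.7 CPM in the altered libraries (SD, n = 6), overlapped.

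In the hairpin of miR-26b only the 3′ arm was apart from the controls. miR-26b-3p was at 14.9, 7.25 and 14.8 CPM in the controls, 49.4, 29.5 and 22.9 CPM in the transgene libraries and 23.9, 30.5 and 19.2 CPM in the knockout libraries (log2 1.25, SE 0.37, called by DESeq2 with an adjusted p of 0.0381). The abundant arm miR-26b-5p was at 5088 ± 588 CPM in controls (SD, n = 3) and 5199 ± 741 CPM in the altered libraries (SD, n = 6) (log2 0.03, SE 0.16). miR-344d-3p had a log2 fold change of 3.22 (SE 1.11) at 0.434 ± 0.0273 CPM in controls (SD, n = 3) and 4.09 ± 5.81 CPM in the altered libraries (SD, n = 6). miR-3968 was at 2.70, 3.71 and 3.75 CPM in controls and from 5.36 to 11.7 CPM (median 9.60) in the altered libraries. miR-7b-5p, a neural and endocrine miRNA, had the DESeq2 adjusted p 0.00035 with 45.0, 11.5 and 4.67 CPM in the controls, 629, 595 and 105 CPM in the transgene libraries and 13.8, 552 and 2940.3 CPM in the knockout libraries, and overlapped. On the lower side, miR-151-5p was at 5989, 6374 and 6283 CPM in controls and from 3832 to 5611 CPM (median 4469) in the altered libraries, under each scaling.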
